A study of Mus musculus with 60 samples.

Results

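The effect of the Wnt pathway inhibitor XAV939 (XAV) on H3K27me3 was examined in wild-type (WT) cells at day 5 of neural differentiation. H3K27me3, the trimethylated form of lysine 27 on histone H3, was mapped with CUT&RUN, a method that uses an antibody-guided nuclease to release the marked chromatin for sequencing. Of the 60 samples of the series, 30 carry the H3K27me3 antibody, and 4 of these belong to the comparison: the WT embryonic stem cell lines WT70 and WT72, each sampled at day 5 without XAV and at day 5 with 5 µM XAV present from day 2. Both lines carry genotype WT, and their tissue label names B6129S6F1 Tet1<tm1Koh>, as it does for the Tet1 knockout (KO) lines. Cells were plated without feeders in N2B27 medium, with basic FGF in the first days, on the way to anterior neural progenitors. The protocol names DMSO as the vehicle control for its compounds without saying which libraries received it. The sources used here do not say how WT70 and WT72 relate to each other beyond their names, so that the n of 2 counts lines, each profiled a single time per condition. The p-values rest on the spread within these libraries, much of it taken across regions, and do not cover other lines. Each library is from bulk cells, in which fewer cells of a type and less of the mark per cell cannot be told apart. The whole series also holds days 0, 2 and 3 of WT, and KO and catalytic mutant lines, which enter only where named.

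H3K27me3 is deposited by Polycomb repressive complex 2 at CpG-rich promoters of developmental regulators that are silent or poised, and it is usually depleted where such genes are transcribed. Canonical Wnt signalling stabilises β-catenin, which acts with TCF/LEF factors on target genes such as Sp5 and Axin2. In the early neural plate Wnt activity favours posterior identities (midbrain, hindbrain and spinal cord), and forebrain and eye field form where it is low. XAV inhibits tankyrases and thereby stabilises the AXIN proteins of the β-catenin destruction complex. The comparison addresses how H3K27me3 is distributed when Wnt signalling is inhibited.

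Under XAV, H3K27me3 signal was lower at regions of forebrain and eye regulators (Six3, Rax, Emx2, Lhx2, Nr2e1) and higher at regions of the midbrain and hindbrain regulators Irx5, Irx3, Pax7, Fgf8 and Dmbx1, of the Wnt target Sp5 and of the ligand Wnt3. The other fitted regions of the Wnt gene lists did not pass the threshold, and several of these calls (Fgf8, Irx3, Nr2e1, Dmbx1, Pax7, Wnt3) did not hold in most alternative fits. Only regions with peaks in all 4 libraries were fitted. Presence was thus fixed by that choice, and these values describe amount and extent. A larger set of mostly weak peaks was seen only with XAV. That excess was smaller when every library was given equal numbers of peaks.

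To show the promoters behind these values, 4 are printed from the RefSeq promoter table of build GRCm38.p6, each running from 250 bases before to 50 bases after the start. Capitals mark the TCF/LEF core CTTTGAT or its reverse complement ATCAAAG. Sp5 (chr2:70474673-70474972, plus strand) and Pou3f2 (chr4:22488317-22488616, minus strand) lie in regions that were higher under XAV, and Nr2f2 (chr7:70366697-70366996, minus strand) and Six3 (chr17:85620584-85620883, plus strand) in regions that were lower.
Sp5: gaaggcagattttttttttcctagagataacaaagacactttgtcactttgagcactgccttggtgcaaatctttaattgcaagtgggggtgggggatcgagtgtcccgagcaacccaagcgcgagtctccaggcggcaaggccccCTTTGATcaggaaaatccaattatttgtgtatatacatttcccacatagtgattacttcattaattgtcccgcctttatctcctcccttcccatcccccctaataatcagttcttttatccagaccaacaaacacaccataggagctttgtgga
Pou3f2: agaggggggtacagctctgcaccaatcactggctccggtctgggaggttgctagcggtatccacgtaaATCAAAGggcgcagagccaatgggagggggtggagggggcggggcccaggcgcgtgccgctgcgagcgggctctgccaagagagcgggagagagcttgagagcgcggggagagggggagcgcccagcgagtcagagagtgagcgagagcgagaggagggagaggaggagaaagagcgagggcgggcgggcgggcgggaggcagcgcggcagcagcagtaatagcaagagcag
Nr2f2: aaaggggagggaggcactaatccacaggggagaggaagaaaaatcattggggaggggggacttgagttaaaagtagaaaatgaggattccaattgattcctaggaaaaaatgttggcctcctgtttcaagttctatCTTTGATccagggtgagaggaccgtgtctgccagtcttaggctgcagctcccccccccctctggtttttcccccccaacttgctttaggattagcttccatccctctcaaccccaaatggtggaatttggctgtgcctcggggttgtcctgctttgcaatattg
Six3: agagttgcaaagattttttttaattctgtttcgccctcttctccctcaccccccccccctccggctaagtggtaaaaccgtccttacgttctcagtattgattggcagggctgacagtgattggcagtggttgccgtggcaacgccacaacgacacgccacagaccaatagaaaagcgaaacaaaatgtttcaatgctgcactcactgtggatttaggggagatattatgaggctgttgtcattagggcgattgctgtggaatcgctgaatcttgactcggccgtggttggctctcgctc
Sp5, Pou3f2 and Nr2f2 each hold 1 match, and Six3 holds 0. The promoters contain 6 CpG dinucleotides in Sp5, 24 in Pou3f2, 2 in Nr2f2 and 14 in Six3. Searched on both strands, the motif was present in 2 of 33 promoters (6.06%) of genes at regions higher under XAV, with 28 of 36 genes matched to the table. Both matches, Sp5 and Pou3f2, are printed above, so that the 4 printed promoters do not stand for their groups. The motif was present in 2 of 48 promoters (4.17%) of genes at regions lower under XAV (39 of 49 genes matched). There Hoxd8 is the other match beside Nr2f2. The share was 3.38% among promoters of genes at all fitted regions and 3.73% among the 32851 RefSeq promoters.

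Libraries without XAV held 1270 (WT70) and 1385 (WT72) peaks, and libraries with XAV 1407 (WT70) and 1717 (WT72). Both XAV libraries lay above both day 5 libraries, with means of 1328 ± 81.3 and 1562 ± 219 (SD, n = 2). Within lines the ratio was 1.11 in WT70 and 1.24 in WT72. Covered sequence was 7.61 Mb without and 9.19 Mb with XAV in WT70, and 8.90 and 9.49 Mb in WT72. The WT72 XAV library stands apart in the shape of its peaks: its median highest signal was 25, against 29 to 34 in the other 3 libraries, and its median peak width 4.30 kb, against 4.90 to 5.10 kb. With 2 libraries against 2 no exact permutation test can go below p = 0.333 (0.5 when paired by line), so peak numbers and calls are given without a test. Read depth is unknown from these files, and no counting interval can be given.

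Peak sets resembled each other more by treatment than by line. The Jaccard index of covered bases (shared over joint bases) was 0.711 between both day 5 libraries and 0.696 between both XAV libraries. Between day 5 and XAV of the same line it was 0.621 in WT70 and 0.624 in WT72. Pairs that differed in line and treatment gave 0.601 and 0.625. Restricting each library to its 1270 strongest peaks left 0.722 and 0.717 within treatments and 0.631 to 0.641 between them.

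Overlapping peaks of the 30 H3K27me3 libraries were merged, and the 3828 regions found in 2 or more libraries were kept. Of these, 922 were called in all 4 WT day 5 libraries and 2224 in none. Both XAV libraries and neither day 5 library had a peak at 163 regions (4.26% of 3828), and both day 5 libraries and neither XAV library at 15 (0.392%). Line by line, WT70 gained 286 and lost 87 regions, and WT72 gained 364 and lost 83. With 1270 peaks taken from each library, 89 regions (2.32%) were called with XAV alone and 49 (1.28%) without XAV alone. WT72 then had 165 gains and 161 losses, and WT70 194 and 115. The surplus of gains was thus smaller at equal peak numbers in each line. Whether peak yield accounts for the remainder was not tested.

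**Figure D1:**
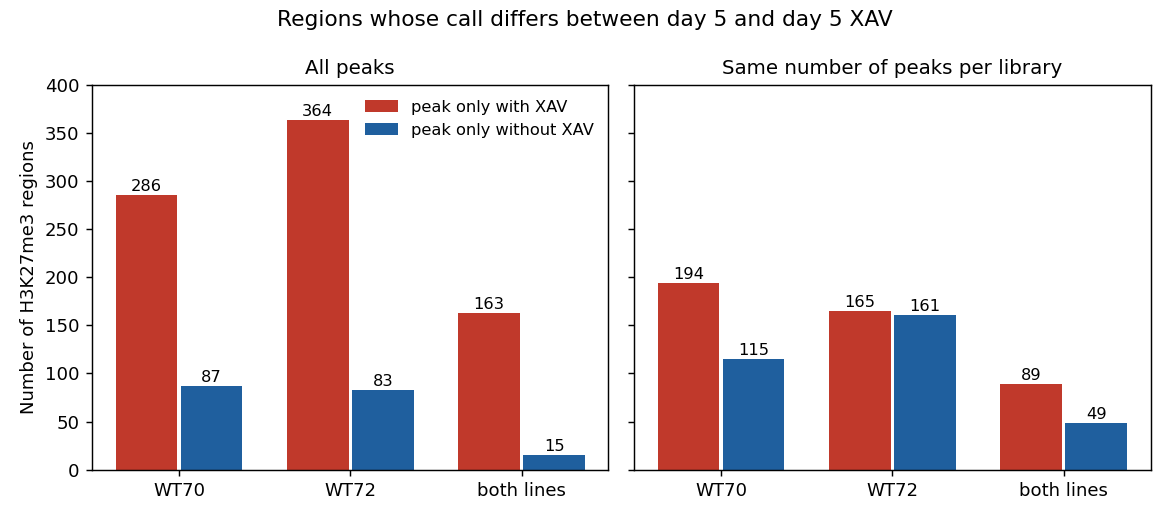
Number of merged H3K27me3 regions (vertical axis) called only with XAV (red) or only without XAV (blue) in WT70, in WT72 and in both lines, with all peaks (left) and with the 1270 strongest peaks of each library (right). In both lines together the counts are 163 and 15 with all peaks and 89 and 49 at equal peak numbers.

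The 163 regions seen with XAV alone carried weak peaks. The median within-library percentile of their total signal was 23.1, against 61.0 for the 922 regions called in all 4 libraries. They were narrower, with a median width of 7.92 kb against 12.1 kb, and had similar GC content, 51.6% against 50.7%. Of them 81.0% lay at a protein-coding promoter, against 88.9% of the regions called in all 4 libraries and 78.3% of all 3828. Elsewhere in the series these regions did carry peaks: their median presence was 13 of 30 libraries. In WT at day 2 they were called at 49.7% (WT70) and 41.7% (WT72), against 54.7% and 46.2% of all 3828 regions in the same libraries. At day 3 the shares were 5.52% and 14.1%, against 20.4% and 26.5%, and at day 0 29.4% and 58.9%, against 34.7% and 76.9%. In every earlier WT library these regions were called at a lower rate than all regions, by little at day 2. They were chosen for having no peak in either WT day 5 library, whereas the 3828 include the 922 called in all 4. A lower rate in other WT libraries can follow from that choice, and nothing is concluded from it. In the KO lines at day 5 (KO1 and KO15) they were called at 55.8% and 75.5% without XAV, against 50.1% and 62.6% of all regions, and at 76.1% and 96.9% with XAV, against 43.0% and 60.8%. The catalytic mutant lines at day 5 gave 87.7% (line 59) and 11.04% (line 69) without XAV, against 65.1% and 27.4%. With XAV they gave 12.9% and 92.6%, against 17.4% and 46.4%. These lines thus went opposite ways, as did their shares of all regions and their peak numbers. Line 59 had 2847 peaks without and 704 with XAV, and line 69 had 1191 and 1924.

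The strongest of these XAV-alone peaks lay at or near genes of several classes. Foxb1, a forkhead gene of the posterior neural tube and hypothalamus, had a peak in 27 of 30 libraries but in neither WT day 5 library. With XAV its unscaled totals were 148 (WT70) and 101 (WT72) coverage-kb, where a coverage-kb is the read coverage summed over the bases of a peak, in kb. Socs3, an inhibitor of cytokine signalling, had 74.1 and 60.6. Trh, which encodes thyrotropin-releasing hormone, had 66.8 and 47.9. Ndufa4l2, a mitochondrial protein gene, lay at another, with 75.4 and 54.7. The others were 32.2 kb from Ano1, 53.0 kb from Pparg, 29.0 kb from Ephb3 and on an unplaced contig.

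The 15 regions without XAV alone were also weak, with a median percentile of 24.3 and a median presence in 22 of 30 libraries. The highest-ranked lay in the promoter window of Nr2f1, a nuclear receptor gene of the developing cortex, 1.22 kb from the nearest start. It had unscaled totals of 33.4 (WT70) and 92.5 (WT72) and no peak in either XAV library. It lies beside the Nr2f1 region fitted below. Grm4, a glutamate receptor gene, had 43.1 and 46.6 coverage-kb without XAV. The other 6 by rank were at Fam107a, Spon1, Tcf24 and Nat8l and at 15.0 kb from Wnt8b and 151 kb from H60c. Each of these peaks was below the median strength of its library except that of WT72 at Nr2f1.

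Promoters (1.5 kb to either side of a start of a protein-coding transcript) followed the regions. Of 3179 promoters called in at least 2 of the 30 libraries, 135 (4.25%) were called with XAV alone and 15 (0.472%) without XAV alone, and 867 in all 4 libraries. Called shares were 31.5% without and 36.6% with XAV in WT70, and 35.0% and 41.9% in WT72. The mean gain was 5.98 percentage points, and at equal peak numbers 0.818 points.

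Against this general gain, forebrain and eye field promoters lost calls. Of the 29 genes of that list 89.7% were called in each day 5 library, and 75.9% (WT70) and 79.3% (WT72) with XAV. The difference was -12.1 points, and it was also -12.1 points at equal peak numbers. With most of its genes called at day 5, the list had little room to gain calls. Of all promoters 31.5% (WT70) and 35.0% (WT72) were called at day 5, so the changes in points are not on an equal footing. Fezf1, a repressor needed in the forebrain, was called in both day 5 libraries and neither XAV library. Emx2 and Fezf2 lost their promoter call in the WT72 XAV library alone, and Dlx2 and Foxd1 in the WT70 XAV library alone. Sp8 went the other way in WT72. Otx2, a head organiser and forebrain factor, and Hesx1 were called in 0 of 4 libraries.

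Posterior and Wnt lists gained calls, as promoters in general did. The 22 midbrain and hindbrain regulators went from 90.9% in both lines to 95.5% and 100%, a gain of 6.82 points that was 2.27 at equal peak numbers, with Irx5, an Iroquois homeobox gene, called with XAV alone. The wider region of Irx5 had peaks in all 4 libraries, of which those at day 5 did not reach the promoter window, and the same holds for Pou3f2 and Ebf1 below. The 35 Wnt receptors and modulators went from 14.3% and 22.9% to 22.9% and 28.6%, a gain of 7.14 points that was the same at equal peak numbers, and Fzd10, a Wnt receptor gene, was called with XAV alone. Peak strength at Fzd10 was uneven, at the 36.2nd percentile in WT70 and the 84.8th in WT72. Wnt ligands gained 7.89 points, and 2.63 at equal peak numbers. Wnt targets gained 5.56 points, and 2.78 at equal peak numbers, while the targets Axin2, Tcf7, Ccnd1, Myc and Rnf43 were called in 0 libraries with or without XAV. The 14 genes of the intracellular Wnt pathway, the 25 housekeeping genes and the 11 germline genes were called in 0 of the 4 libraries.

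Other promoters on the lists called with XAV alone were those of Nodal, the TGF-β family ligand of the primitive streak, Fgf15, Kdr, Tfap2b, Ebf1 and the neural progenitor factors Pou3f1 and Pou3f2. Kif17 and Sh2d5, which the study examined and whose starts lie in the same region, were also called with XAV alone, and Brsk2 in 0 of 4 libraries. A region at Lef1, a TCF/LEF factor gene and Wnt target chosen here after its values were seen, had peaks with XAV alone at the 35.5th and 50.1st percentiles, although the annotated promoter window of Lef1 itself was not reached. Tet1 was called in 0 of 4 libraries, so that these peaks say nothing about its own promoter.

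For the 922 regions with peaks in all 4 libraries, total signal was compared on a log2 scale, after scaling the libraries so that the median region had no difference, with a limma fit paired by line. With Benjamini-Hochberg adjustment 36 regions (3.9%) were higher and 24 (2.6%) lower under XAV at an adjusted p under 0.05. Without pairing the lines, 20 were higher and 13 lower. When signal was taken as a share of each library's total, the median region shifted to -0.13 on the log2 scale and the split turned to 23 higher and 35 lower, so that directions are stated relative to the median region. All 60 regions kept their direction under that scaling and under quantile normalization, although quantile normalization left 3 higher and 5 lower past the threshold. Leaving out each library in turn, without pairing, gave 10 and 6 (without WT70 day 5), 7 and 3 (WT72 day 5), 10 and 15 (WT70 XAV) and 12 and 18 (WT72 XAV). The differences in WT70 and WT72 correlated at 0.541 over the 922 regions, which share each library's scaling, and 613 (66.5%) had the same sign in both lines.

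**Figure D2:**
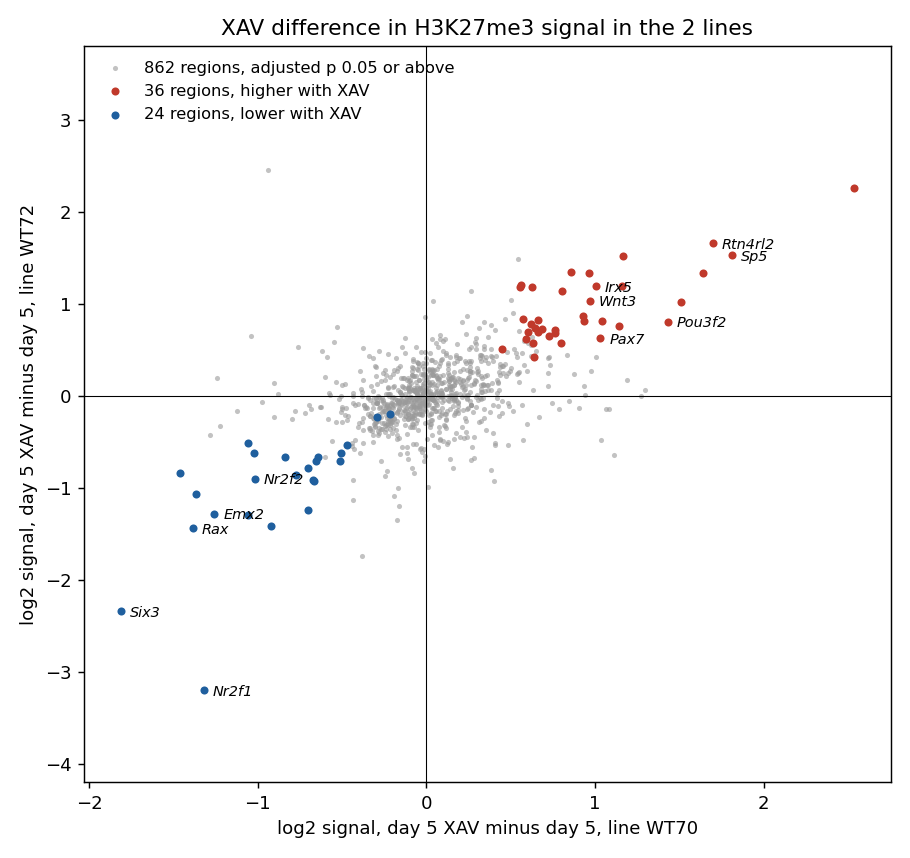
Difference in log2 H3K27me3 signal between day 5 XAV and day 5 in WT70 (horizontal axis) and WT72 (vertical axis) for 922 regions with peaks in all 4 libraries. The 36 regions higher (red) and 24 lower (blue) under XAV at an adjusted p under 0.05 lie in the corner of equal sign, with Six3 and Nr2f1 lowest among named genes and Sp5 and Rtn4rl2 highest.

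The sums follow how much of a region was covered by peaks. Covered length was shorter under XAV in 24 of the 24 lower regions and longer in 36 of the 36 higher ones, with median log2 differences of -0.60 and 0.70. Mean signal per covered base moved less, with medians of -0.23 in the lower and 0.15 in the higher regions. It was lower in 24 of 24 and higher in 26 of 36. These regions were called on total signal, which is covered length times mean signal per covered base. Their directions in both parts therefore follow largely from that choice and are descriptions only. Over all 922 regions covered length was longer in 463 and shorter in 459, and mean signal was higher in 460 and lower in 462. Tested by itself, mean signal per covered base left 1 region higher and 0 lower by limma (78 and 60 at an unadjusted p under 0.05), and the highest signal in the region left 3 and 3. The medians thus moved more in covered length than in mean signal, but single regions differed: mean signal moved more than covered length at Rax (-0.76 against -0.63), Lhx2 (-0.43 against -0.37), Wnt3 (0.66 against 0.36) and Irx5 (0.71 against 0.40).

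Signal values below are scaled totals in coverage-kb. Brackets give log2 differences of XAV from day 5 with the SE and adjusted p of the paired limma fit. That SE draws on the spread across all fitted regions and is not the SE between both lines at that region alone. Among the regions with less signal, Six3, a homeobox gene of forebrain and eye that represses Wnt genes, changed most of the list. Its scaled signal was 228 (WT70) and 313 (WT72) at day 5 and 64.8 and 61.6 with XAV. Both XAV values lay far below both day 5 values, a log2 difference of -2.08 (SE 0.16, n = 2 lines, adjusted p = 0.00317 by limma), or 4.22-fold lower. Peaks covered 14.7 and 22.1 kb of the region at day 5 and 6.27 and 7.19 kb with XAV. The region spans chr17:85606165-85642118 and includes the promoter printed above.

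Rax and Emx2, homeobox genes of the eye field and the dorsal forebrain, followed. Rax had 115 and 127 coverage-kb at day 5 and 44.3 and 46.6 with XAV (log2 -1.41, SE 0.13, adjusted p = 0.00458). Emx2 had 226 in both lines at day 5 and 94.4 and 92.8 with XAV (log2 -1.27, SE 0.11, adjusted p = 0.00381). In neither gene did the groups overlap.

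Lhx2, a LIM homeobox gene required for eye and cortex, went from 358 and 385 coverage-kb to 209 and 212 (log2 -0.82, SE 0.08, adjusted p = 0.00633). Nr2e1, a nuclear receptor gene of forebrain progenitors that shares its region with Ostm1, went from 297 and 353 to 215 and 244 (log2 -0.50, SE 0.08, adjusted p = 0.0246), a call kept in 4 of 12 alternative fits.

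As a list, the forebrain and eye field regulators had 24 of 29 genes at 22 fitted regions. Of these, 6 were lower and 0 higher at the threshold, against 24 (2.6%) and 36 (3.9%) of all 922, and 16 were lower in both lines, against 322 of 922. Their median log2 difference was -0.31, against -0.0049 over all 922 regions. Pax6, with 212 and 342 coverage-kb at day 5 and 157 and 156 with XAV, had an adjusted p of 0.0514. Dlx1 with Dlx2, Dlx5 with Dlx6, and Vax2, which act in the ventral forebrain and ventral eye, had log2 differences between -0.06 and 0.11. The shift within the list thus went from Six3 at -2.08 to Lhx5 at 0.19.

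Genes outside the list were also lower. Nr2f1 had 192 and 214 coverage-kb at day 5 and 77.0 (WT70) and 23.3 (WT72) with XAV (log2 -2.26, SE 0.40, adjusted p = 0.0308), and its paralogue Nr2f2 went from 298 and 339 to 147 and 181 (log2 -0.96, SE 0.09, adjusted p = 0.00553). By highest signal Nr2f2 had a log2 difference of 0.094. At Nr2f1 the lines were far apart with XAV, yet both lay under both day 5 values. The Nr2f1 region passed the threshold in 4 of 11 alternative fits, and by mean signal per covered base its log2 difference was -0.089. Cdkn2a and Cdkn2b, neighbouring cell cycle inhibitor genes under Polycomb control, went from 260 and 324 to 160 and 188 (log2 -0.74, SE 0.09, adjusted p = 0.0127), with 0.12 by highest signal. Hs3st4, which encodes a heparan sulfate sulfotransferase, went from 57.1 and 64.7 to 27.4 and 26.3 (adjusted p = 0.0136). Of the remainder, Mab21l1, Irx4, Foxd4, Grb10, Sfmbt2, the Gpr153 and Hes3 region and the Cyp26a1 and Cyp26c1 region, which holds retinoic acid degrading enzymes, fell by 0.61 to 1.17 on the log2 scale.

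The Hox clusters, which pattern the trunk, moved by small amounts. Of 12 alternative fits, the Hoxa region passed the threshold in 5 and the Hoxd region in 2. The Hoxa cluster (chr6:52146131-52278622) carried 1966 and 1887 coverage-kb at day 5 and 1603 in both XAV libraries (log2 -0.26, SE 0.04, adjusted p = 0.0143). The Hoxd cluster had 1293 and 1319 at day 5 and 1111 and 1145 with XAV (log2 -0.21, SE 0.04, adjusted p = 0.038). Peaks covered 113 to 121 kb of the Hoxa region in the 4 libraries and 86.3 to 97.8 kb of the Hoxd region. The 43 Hox and caudal genes at fitted regions fell into 8 regions, of which 2 were lower and 0 higher, with a median of -0.10.

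**Figure D3:**
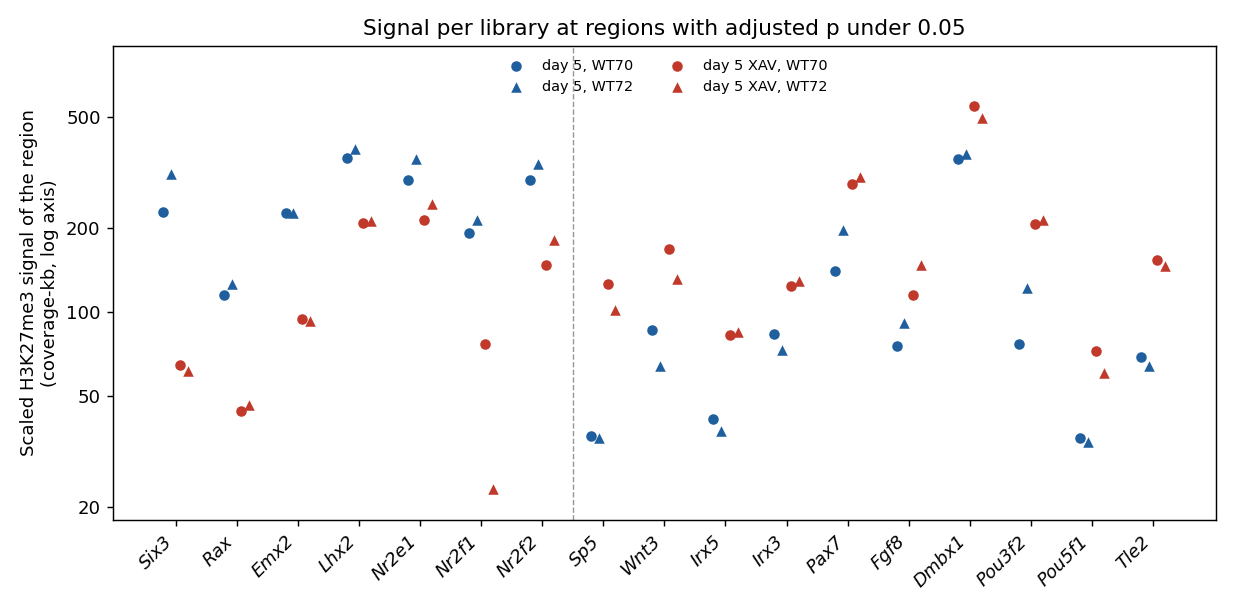
Scaled total H3K27me3 signal in coverage-kb (vertical log axis) at 17 regions with an adjusted p under 0.05, named by a promoter gene, in each of the 4 libraries (circles WT70, triangles WT72, blue day 5, red day 5 XAV). Left of the dashed line red points lie below blue points of the same line, as at Six3 (228 and 313 against 64.8 and 61.6), and to the right above them, as at Sp5 (35.9 and 35.4 against 126 and 102).

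Among the regions with more signal, Sp5, a zinc finger repressor gene and direct Wnt target, had the largest increase among the gene lists. Its scaled signal was 35.9 and 35.4 coverage-kb at day 5 and 126 (WT70) and 102 (WT72) with XAV. The groups did not overlap, and the log2 difference was 1.67 (SE 0.15, adjusted p = 0.00399), or 3.18-fold. Covered length at Sp5 was 3.74 and 2.98 kb at day 5 and 9.87 and 5.84 kb with XAV. The region spans chr2:70468452-70485497. The other 3 Wnt targets with a fitted region were T at 0.15, Notum at 0.20 and Cdx1 at -0.01, none past the threshold (adjusted p = 0.501 to 0.985).

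Wnt3, a ligand of the primitive streak, was the Wnt ligand that passed the threshold. It had 86.2 and 64.3 coverage-kb at day 5 and 169 and 132 with XAV (log2 1.00, SE 0.12, adjusted p = 0.0106), and no XAV value overlapped a day 5 value, with the threshold passed in 5 of 12 alternative fits. Wnt2b had 50.0 and 40.2 at day 5 and 71.2 and 75.0 with XAV, with an adjusted p of 0.0572. The 13 ligands with a fitted region lay at 12 regions, with a median of 0.16. Of 6 regions of Wnt receptors and modulators none passed, and the largest differences of like sign in both lines were 0.42 (SE 0.14, adjusted p = 0.165) at Rspo1 and 0.29 (SE 0.15, adjusted p = 0.316) at Sost. Tle2, a Groucho co-repressor gene outside the lists, went from 68.8 and 64.3 to 154 and 147 (log2 1.17, SE 0.12, adjusted p = 0.00633).

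Midbrain and hindbrain regulators were higher at 5 of 21 regions and lower at 0, against 36 (3.9%) and 24 (2.6%) of 922, with 15 higher in both lines, against 291 of 922, and a median of 0.31. Irx5 went from 41.3 and 37.4 to 82.7 and 85.2 coverage-kb (2.14-fold, SE 0.14 on the log2 scale, adjusted p = 0.0136), and Irx3, of the same Iroquois cluster, from 83.6 and 72.8 to 124 and 130 (log2 0.70, SE 0.13, adjusted p = 0.0362). In both genes the groups were apart and the lines close. Pax7, a dorsal midbrain and neural crest gene, went from 141 and 198 to 287 and 304 (log2 0.83, SE 0.12, adjusted p = 0.0202). Fgf8, the ligand of the midbrain-hindbrain boundary, went from 75.8 and 91.2 to 115 and 147 (log2 0.65, SE 0.12, adjusted p = 0.0361), and Dmbx1, a midbrain homeobox gene, from 352 and 370 to 548 and 494 (log2 0.53, SE 0.08, adjusted p = 0.0202). Dmbx1 turned to -0.082 by highest signal and -0.097 by mean signal per covered base. Of 12 alternative fits (11 for Fgf8, 10 for Irx5), Irx5, Pax7 and Dmbx1 passed the threshold in 5, Irx3 in 3 and Fgf8 in 2. En1 and En2, boundary homeobox genes, had 0.32 and 0.31 with adjusted p of 0.105 and 0.129. The list's direction held when signal was taken as a share of the total (median 0.18), where the Wnt receptor list turned to -0.05.

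Early developmental genes were represented too. Of 12 primitive streak regions 4 were higher and 0 lower: Sp5, Wnt3 and Fgf8, counted above, and Mixl1, a streak homeobox gene, with 36.1 and 29.9 coverage-kb at day 5 and 55.3 and 51.5 with XAV (log2 0.70, SE 0.15, adjusted p = 0.0462). The call of Mixl1 was lost in each of 11 alternative fits, and by mean signal per covered base its difference was -0.16. T, the streak regulator Brachyury, was at 0.15 (SE 0.11, adjusted p = 0.501), the endoderm gene Sox17 at -0.36 (SE 0.11, adjusted p = 0.144) and Npr3, a natriuretic peptide receptor gene that the study names, at 0.03 (SE 0.14). Pou5f1, the pluripotency factor OCT4, went from 35.2 and 34.3 to 72.6 and 60.4 (log2 0.93, SE 0.15, adjusted p = 0.0217). It alone passed the threshold among 7 pluripotency regions, but 6 of the 7 were higher, against 452 of all 922. The median of that list, 0.37, was the highest of the lists with at least 4 regions. By mean signal per covered base it was -0.08. Mesoderm and endoderm lists had 0 of 21 and 0 of 10 regions past the threshold in either direction.

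Neural progenitor genes had 1 region higher in signal than at day 5 and 4 lower (median -0.06), and proneural and neuron subtype factors 7 and 16 (median -0.07), each list with 1 region past the threshold. These were Pou3f2, a POU factor of neural progenitors, and Ebf1. Pou3f2 went from 76.6 and 122 to 206 and 213 coverage-kb (log2 1.12, SE 0.17, adjusted p = 0.0202). Ebf1, a neuronal differentiation factor gene, went from 96.4 and 99.2 to 159 and 155 (log2 0.69, SE 0.11, adjusted p = 0.0228). Rtn4rl2, a Nogo receptor family gene, went from 31.8 and 29.0 to 103 and 91.6 (log2 1.68, SE 0.14, adjusted p = 0.00381). At Rtn4rl2 the gain was in covered length, from 1.96 and 1.94 to 12.7 and 9.72 kb, while mean signal per covered base had a log2 difference of -0.81 (adjusted p = 0.0618). Rfx4, Plxna4, Grik3, Hpcal4, Nab2 with Nemp1, Dmtn, Runx1 and Onecut2 were also higher, by 0.60 to 1.26 on the log2 scale, with small differences of the other sign by mean signal per covered base at Plxna4, Hpcal4, Runx1 and Onecut2.

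**Figure D4:**
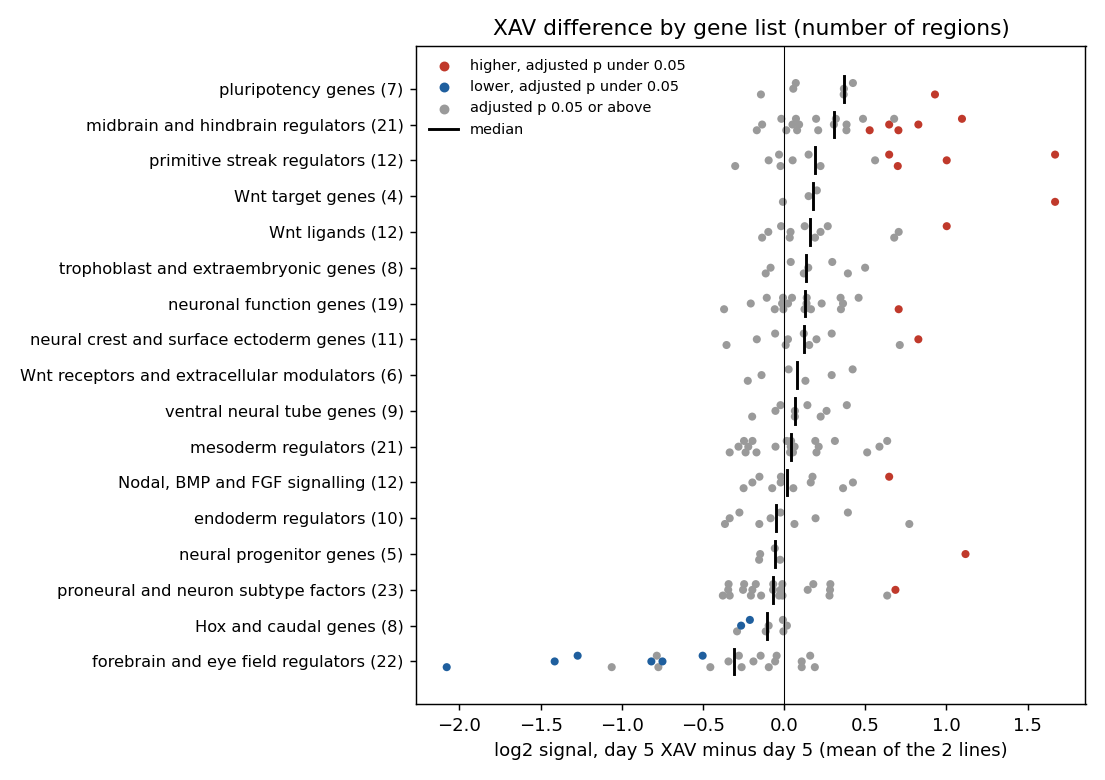
Difference in log2 H3K27me3 signal between day 5 XAV and day 5 (horizontal axis, mean of both lines) for the fitted regions of 17 gene lists with at least 4 regions, with the number of regions in parentheses, a black bar for the median and colour for an adjusted p under 0.05. Forebrain and eye field regulators have the lowest median (-0.31) and 6 lower regions, and midbrain and hindbrain regulators (median 0.31) have 5 higher regions. Pluripotency genes have the highest median (0.37), with 1 higher region at the threshold.

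The lowest p-values of the fit belonged to regions with no protein-coding promoter. A region on chromosome 8 (chr8:123535393-123629770), 16.5 kb from Gas8, contains 48 RefSeq 5S ribosomal RNA genes in an array. Its scaled signal was 643 and 882 coverage-kb at day 5 and 2006 and 2214 with XAV (log2 1.48, SE 0.08, adjusted p = 0.00048), and it was called in each alternative fit. A region on chromosome 6 (chr6:47650488-47687038), 55.1 kb from Ezh2, overlaps the RefSeq gene Rn4.5s, a 4.5S RNA. Its signal was 70.2 and 122 at day 5 and 407 and 585 with XAV (log2 2.40, SE 0.11, adjusted p = 0.00048), with covered length going from 4.597 and 7.802 to 36.6 and 35.4 kb, while the highest signal (-0.043) and the mean per covered base (-0.17) had the other sign. Another region, at chr3:96341888-96352055, contains 2 transfer RNA genes and went from 55.7 and 37.7 to 125 and 108 (adjusted p = 0.0085). The higher regions near BC107364 (log2 0.88) and at the Fcgr3 promoter (log2 0.47) hold transfer RNA genes as well. Genes in such arrays are near-identical copies, so that reads cannot be placed on a given copy, and how the authors' alignment treated them is not given in the sources used here.

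Lower and higher regions differed in their starting level. The lower regions had a median scaled signal of 190 coverage-kb at day 5 and 92.1 with XAV, and a median width of 25.3 kb. The higher regions had 46.1 and 102 and a width of 14.0 kb, and all 922 regions had 62.4 and 63.7. Promoters were present in 21 of the 24 lower and 30 of the 36 higher regions. Medians of GC content were 49.2% and 51.9%, and of CpG dinucleotides 2.34 and 2.50 per 100 bases. Starting level and width were measured in the libraries that chose the regions and are descriptions only.

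The WT libraries of earlier days place these values in time, on a scale set over 10 WT libraries, which share the day 5 libraries with the XAV comparison. Six3 carried 425 and 413 coverage-kb at day 0, 394 and 393 at day 3, 317 and 418 at day 5 and 89.6 and 84.2 with XAV. Rax carried 138 and 131 at day 0, 134 and 126 at day 3, 161 and 169 at day 5 and 61.2 and 63.6 with XAV. At these forebrain genes the XAV libraries lay below all 8 untreated WT libraries. Sp5 carried 126 and 130 at day 0, 212 and 239 at day 2, 182 and 172 at day 3, 49.9 and 47.2 at day 5 and 174 and 139 with XAV. Irx5 carried 242 and 224 at day 3, 57.4 and 49.9 at day 5 and 114 and 116 with XAV. At Sp5 the XAV values lay in the range of days 0 to 3, and at Irx5 between day 3 and day 5. Wnt3 carried 116 to 157 from day 0 to day 3, 120 and 85.8 at day 5 and 233 and 180 with XAV, above all untreated libraries. Day 3 libraries had fewer peaks (969 to 1135), and their values carry that limit.

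**Figure D5:**
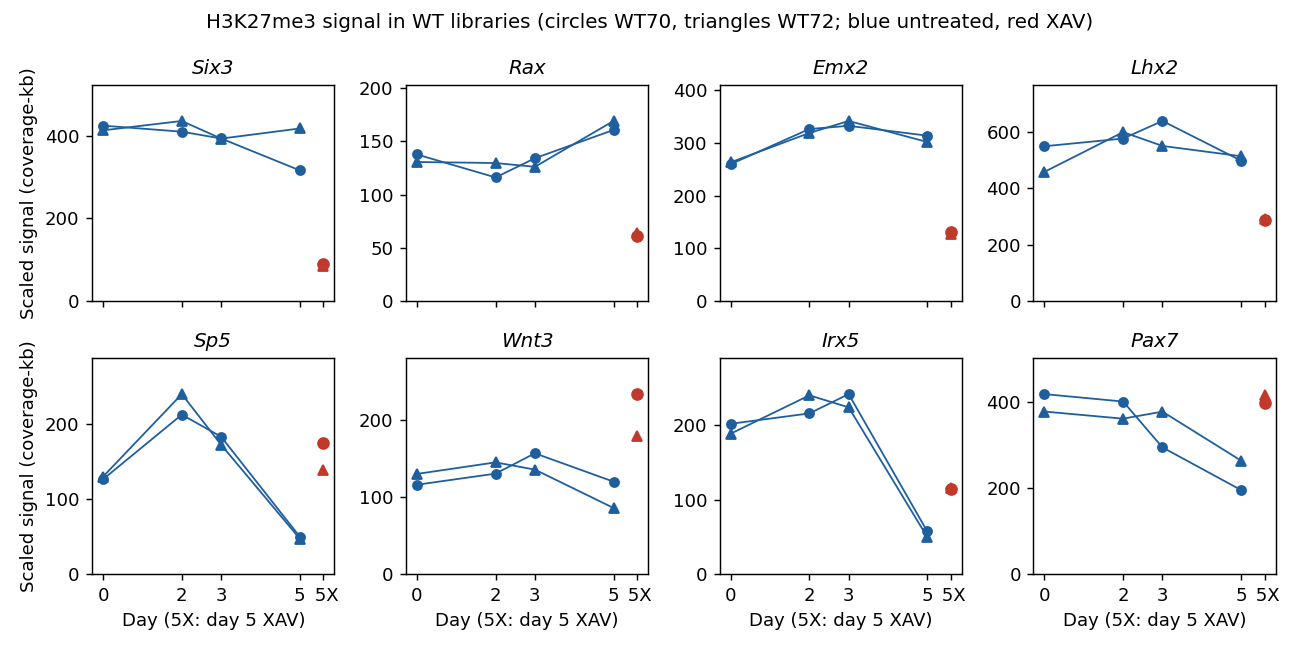
Scaled H3K27me3 signal in coverage-kb (vertical axis) in WT libraries at days 0, 2, 3 and 5 (blue) and at day 5 XAV (red, 5X) for 8 regions, with circles for WT70 and triangles for WT72. XAV points of Six3, Rax, Emx2 and Lhx2 lie below every untreated point, and those of Sp5, Wnt3, Irx5 and Pax7 lie above both day 5 points.

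The same inhibitor was applied to Tet1 KO cells (KO1 and KO15), and its effect was compared with that in WT in a limma fit over 862 regions called in all 8 libraries. The KO effect was above the WT effect at 64 regions (7.42%) and below it at 52 (6.03%) at an adjusted p under 0.05. Taken as shares of total signal the counts were 122 and 38. Without the WT70 XAV library they were 38 and 30, without KO1 XAV 28 and 31, and without KO15 XAV 27 and 28. At Six3 the log2 effect in KO was -1.85, which differed from that in WT by 0.23 (SE 0.24, adjusted p = 0.536). At Sp5 it was 1.95, a difference of 0.29 (SE 0.18, adjusted p = 0.312). At Rax and Lhx2 the KO effect was smaller, at -0.66 and -0.16. The differences from WT at these genes were 0.75 (SE 0.16, adjusted p = 0.0388) and 0.66 (SE 0.16, adjusted p = 0.0431). The Hoxa cluster was at 0.23 in KO (difference 0.50, SE 0.05, adjusted p = 0.00732), and Cdkn2a with Cdkn2b at 1.02 (difference 1.77, SE 0.12, adjusted p = 0.00266). These regions were picked by their change in the same WT libraries, which enter both the choice and the difference.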

How the data were processed

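H3K27me3 CUT&RUN peaks of 4 WT libraries were analysed within the 30 H3K27me3 libraries of the series. Per the labels and the study's methods, the authors used Trim Galore for adapters, Bowtie for local alignment to GRCm38.p6 (mm10) and Picard for duplicates, and called stringent peaks per library against control IgG with SEACR (version not given in the sources used here). As deposited by the authors, each peak has a total and a highest signal in whole numbers, not scaled for library size, so that depth differs between libraries by an unknown amount and peak number and extent can follow it. The submitters' processing notes also name DiffBind 3.0.15, deepTools 3.4.3 and R 4.0.5. The deposited lists of changed regions hold the authors' own comparisons, and no value of theirs is reported.

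Here overlapping peaks were joined to regions, of which those seen in 2 or more libraries entered. An overlap of 1 bp made a call. The promoter window reached 1.5 kb up and down from each start of a protein-coding transcript in the annotation of that build. For regions called in all 4 libraries, log2 total signal was scaled to a median difference of 0 and fitted with limma 3.58.1 in R 4.3.3, with XAV and the line as terms, empirical Bayes moderation and Benjamini-Hochberg adjustment at 0.05. The fit has 1 residual degree of freedom, and 5.03 prior degrees of freedom come from the spread across regions. The same cell line was sampled with and without XAV, so the line numbers pair the samples. The deviations of the lines correlated at 0.0043 over 922 regions. The KO comparison used the same model over 8 libraries with an interaction term. Scripts ran in Python 3.11.15 with pandas 2.3.3 and pysam 0.24.0, and the limma step was tested on simulated data.

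Named genes were list members whose promoter call changed in both lines or whose region passed the threshold (at most 8 a list, and 2 where none passed), the 8 regions per direction with the lowest p, the 8 strongest regions called only with or only without XAV, and loci that the study shows or uses as controls. Other genes named were chosen after their values were seen, and a few members are not reported here one by one. The regions, the 21 gene lists (461 genes) and the rules were chosen with earlier results of these data known. Alternatives were equal peak numbers, other overlaps, windows, scalings and measures, no pairing, and leaving out each library.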

Additional observations from a re-analysis of the deposited data

Results flagged for a closer look

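The XAV effect in Tet1 KO lines was tested against that in WT lines in the limma fit over 8 libraries, and it differed at an adjusted p under 0.05 for the regions named here, all of which changed in WT. Each value here is the KO effect minus the WT effect on the log2 scale. The WT libraries that chose these regions also enter each difference. KO and WT cells without XAV also differ in cell type, as given above, and the cause was not tested.

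Among regions lower under XAV in WT, the difference was 2.58 at Nr2f1, 1.77 at Cdkn2a, 1.51 at Cyp26a1, 1.18 at Nr2f2, 1.13 at Sfmbt2 and 1.01 at Mab21l1. It was 0.97 near G430095P16Rik, 0.79 at Hs3st4, 0.78 at E030030I06Rik, 0.75 at Rax, 0.66 at Lhx2, 0.60 near Rhbg (a region that holds Mir9-1), 0.57 at Nr2e1, 0.50 at the Hoxa cluster with 5730596B20Rik and 0.46 at the Hoxd cluster with Evx2. Gpr153, at -0.93, was lower still in KO. Of the 24 lower regions 23 could be fitted in 8 libraries, with medians of -0.80 in WT and 0.03 in KO.

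Among regions higher under XAV in WT, the difference was -2.43 near Ezh2 (the Rn4.5s region), -1.93 at Rfx4, -1.87 at Rtn4rl2, -1.59 at Hpcal4, -1.16 at Elfn2, -1.07 at Ckb and -1.03 at Dmtn. It was -0.95 at the transfer RNA region near Fcgr1, -0.76 at Rprml, -0.70 at Pax7 and -0.64 at Fcgr3. The Fcgr3 region also holds 16 RefSeq small RNA genes, transfer RNA genes among them. E130218I03Rik, at 0.99, was higher still in KO. Of the 36 higher regions 28 could be fitted in 8 libraries, with medians of 0.87 in WT and 0.35 in KO. Over all 862 regions the medians were -0.01 in WT and -0.03 in KO.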

How the results depend on the processing

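With equal peak numbers ranked by total signal, 89 regions and 71 promoters were called with XAV alone and 49 and 45 without XAV alone. Ranked by highest signal, 77 and 44 regions were. With at least 0.5 of a region covered, 36 were called without XAV alone. In single lines (leaving out the other), regions gained were 286 to 364 and lost 83 to 87, and promoters gained 252 to 295 and lost 77 to 90. The median change of the list shares, 2.38 points, was 0 at equal peak numbers and ranged from 0 to 2.27 in single lines.

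Of the 922 regions, 20 were higher and 13 lower with no pairing by line, 23 higher as shares of total signal, 3 and 5 after quantile normalization, 3 and 3 by highest signal, and 1 and 0 by mean signal per covered base. Unpaired, leaving out WT70 day 5 gave 10 and 6, WT72 day 5 7 and 3, WT70 XAV 10 and 15, and WT72 XAV 12 and 18. The number of regions at which the KO effect lay above that in WT was 122 as shares of total signal, and leaving out a library gave 27 to 67 above and 28 to 50 below (38 and 30 without WT70 XAV, 28 and 31 without KO1 XAV). Unpaired, 70 lay above and 68 below.

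By highest signal the log2 difference reversed at Dmbx1 (-0.082), near Ezh2 (-0.043), Rtn4rl2 (-0.20), Nr2f2 (0.094), Cdkn2a (0.12), Fcgr3 (-0.070), Onecut2 (-0.19) and near Bcl11b (-0.012). By mean signal per covered base it reversed at Dmbx1 (-0.097), near Ezh2 (-0.17), Rtn4rl2 (-0.81), E130218I03Rik (-0.082), Onecut2 (-0.19), Mixl1 (-0.16), Runx1 (-0.060), Ankrd33b (-0.067), Hpcal4 (-0.0054) and Plxna4 (-0.086). The cause was not tested. Of 12 alternatives, Six3 and Lhx2 passed the threshold in 10, Rax and Emx2 in 9, Sp5 in 8, Wnt3, Pax7 and Dmbx1 in 5, Nr2e1 in 4 and Irx3 in 3. Irx5 passed in 5 of 10, Fgf8 in 2 of 11 and Mixl1 in 0 of 11. Read depth is unknown, so that an uncalled region may be one that the depth could not show.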
